A study of Mus musculus with 36 samples.

Results

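The tubulin genes of the mouse liver and Stmn1 were followed through regeneration at a young and an old age. The group held 4 alpha-tubulin genes (Tuba1a, Tuba1b, Tuba1c and Tuba4a), 5 beta-tubulin genes (Tubb2a, Tubb2b, Tubb4b, Tubb5 and Tubb6) and the tubulin-binding gene Stmn1. Members were taken by gene symbol, and all 10 were found among the 21955 gene rows of each count table. The study compared liver of C57BL/6JN mice aged 4 months (young) with liver of mice aged 18 months (old, which the labels call the treated group), sampled before regeneration and at 5 later points with the labels 48, 72, 96, 120 and 240. No unit is labelled for the time points, nor how regeneration was started. Each of the 12 groups had 3 libraries, described as biological replicates, of ribosomal RNA-depleted total RNA. No group carried a transgene or a deletion, and all 36 libraries came from 1 strain and 1 tissue.

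Microtubules are polymers of alpha-tubulin and beta-tubulin dimers, and vertebrate genomes carry several genes (isotypes) for each subunit that differ in where and when they are used. Dividing cells rebuild their microtubules into a spindle, and cells adjust tubulin mRNA to the pool of free dimers by degrading the mRNA during translation. Stathmin, the product of Stmn1, binds free tubulin dimers, promotes microtubule disassembly, is shut off by phosphorylation at mitosis and is abundant in cycling cells. Hepatocytes rest in the adult liver and re-enter the cell cycle when tissue is lost.

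The sequences of the members bear on how far their counts can be told apart. The coding sequences of Tuba1a and Tuba1b were 98.3% identical and those of Tuba1b and Tuba1c 97.9% identical, against 84.7% between Tuba1a and Tuba4a. Tubb2a and Tubb2b were 96.5% identical, and the other pairs of beta genes 80.2% to 84.5%. Of the 100-base words in the GENCODE M21 transcripts of Tuba1a, 65.1% also occurred in another gene, against 62.1% for Tuba1b, 46.0% for Tuba1c, 36.9% for Tubb2a, 26.0% for Tubb2b and 12.8% for Stmn1. For Tubb4b it was 437 of 2083 words. Tuba4a, Tubb5 and Tubb6 shared 0 such words. The treatment of reads that fit several genes is not given in the sources used here. The split of reads among Tuba1a, Tuba1b and Tuba1c, and between Tubb2a and Tubb2b, is therefore uncertain. If such reads were left out, genes with many shared words would also be counted too low against Tuba4a, Tubb5 and Tubb6. Isotype shares, family sums and levels per kilobase, given below, would then be affected, which was not tested.

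In GRCm38 (GENCODE M21), the 3 Tuba1 genes lay within a stretch of chromosome 15, with Tuba1b at chr15:98931425-98934565 and Tuba1a at chr15:98949837-98953703 on the minus strand and Tuba1c at chr15:99029891-99038110 on the plus strand. Tubb2a (chr13:34074274-34078007) and Tubb2b (chr13:34126748-34130466) were neighbours on the minus strand of chromosome 13. Tuba4a lay at chr1:75214228-75219865, Tubb4b at chr2:25222160-25224702 and Tubb5 at chr17:35833921-35838306, all on the minus strand. Stmn1 lay at chr4:134468320-134473843 on the plus strand. The annotated gene Gm49450 spans both Tuba1a and Tuba1b on their own strand and had no row in the tables. Stk16 overlapped Tuba4a and Fam166a overlapped Tubb4b on the opposite strand, and the strand setting of the counting is not given in the sources used here.

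Most of the members rose at 48, as described below, so the 250 bases before the RefSeq start of a few of them are shown with the CCAAT box, the site that the factor NF-Y is known to bind, in capitals. Of the 10 members, 7 had a promoter in the RefSeq table (GRCm38.p6), and Tubb2b, Tubb6 and Stmn1 had none there. Tubb4b is shown because it held 5 copies and Tubb5 because it was the most counted member. Tubb2a is shown because it was the 1 member called between the ages over all time points, and Tuba4a because it did not rise in young liver. The windows are chr2:25224703-25224952 (Tubb4b), chr17:35838302-35838551 (Tubb5), chr13:34078009-34078258 (Tubb2a) and chr1:75219295-75219544 (Tuba4a), all read 5′ to 3′ on the minus strand.
Tubb4b: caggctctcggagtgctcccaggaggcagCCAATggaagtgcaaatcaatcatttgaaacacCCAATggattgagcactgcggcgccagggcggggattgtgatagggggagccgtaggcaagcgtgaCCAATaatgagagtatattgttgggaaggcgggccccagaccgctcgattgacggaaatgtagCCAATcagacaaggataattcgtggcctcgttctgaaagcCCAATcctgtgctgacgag
Tubb5: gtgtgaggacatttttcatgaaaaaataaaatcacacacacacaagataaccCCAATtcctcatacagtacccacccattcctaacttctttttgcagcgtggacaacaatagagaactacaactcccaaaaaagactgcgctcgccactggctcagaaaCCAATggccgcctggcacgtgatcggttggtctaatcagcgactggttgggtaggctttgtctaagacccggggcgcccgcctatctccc
Tubb2a: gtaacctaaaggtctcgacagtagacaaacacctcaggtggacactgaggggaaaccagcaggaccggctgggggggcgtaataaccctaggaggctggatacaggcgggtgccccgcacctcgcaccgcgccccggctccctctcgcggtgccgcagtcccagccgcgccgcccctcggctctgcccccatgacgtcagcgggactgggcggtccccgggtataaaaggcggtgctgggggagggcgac
Tuba4a: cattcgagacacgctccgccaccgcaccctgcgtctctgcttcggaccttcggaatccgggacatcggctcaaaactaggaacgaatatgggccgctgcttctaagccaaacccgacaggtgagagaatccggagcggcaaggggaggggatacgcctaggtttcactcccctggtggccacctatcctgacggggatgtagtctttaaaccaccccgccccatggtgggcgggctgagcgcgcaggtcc
The search covered CCAAT and its complement ATTGG, so both strands. Tubb4b held 5 copies, starting 221, 188, 122, 59 and 19 bases before the start, Tubb5 held 2, Tuba1a and Tuba1c held 1 each, and Tuba1b, Tuba4a and Tubb2a held 0. Of 32851 windows of the same length in the table, 33.8% held at least 1 copy, 10.1% at least 2 and 0.213% at least 5. The cell cycle homology region TTTGAA, or TTCAAA on the other strand, was found in the Tubb4b window, 198 bases before the start, in none of the other 6 and in 16.0% of all windows. It overlapped no CCAAT copy. The Tuba4a window lies inside the GENCODE gene model, whose start is further upstream than that of RefSeq. The windows of Tuba1a and Tuba1b lie mostly inside their gene models too, and the CCAAT copy of Tuba1a is in the part inside. A match of letters is a description of the window only.

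Library totals ran from 2328233 to 6034446 counts (median 4439170), and the scaling factors for composition from 0.930 to 1.133. Spread between libraries, as edgeR's biological coefficient of variation, reached 40.6% in old liver at 48 against 19.4% to 27.2% in the other 11 groups. Exactly 1 library of each group held transcripts of Y-linked genes (177 CPM or more, against at most 0.212 CPM in the other 24). The labels give no sex, and calls of members that change without these 12 libraries are given beside the results. Markers of hepatocytes, 8 of 8 detected, summed to 17764 to 27551 CPM. The other marker lists were lower: bile duct cells 25.4 to 286 CPM, macrophages 145 to 828, stellate cells 226 to 845, endothelium 232 to 451, T and B cells 0.445 to 23.3, neutrophils 0.995 to 32.4 and neural cells 2.23 to 49.2. In the bile duct list, Spp1 reached 261 CPM in its highest library, Sox9 25.1 CPM and Krt19 9.24 CPM, so the highest sums were mostly Spp1. These are bulk libraries, so fewer cells of a type and less RNA per cell cannot be told apart.

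Levels are given per library as CPM, the count scaled to library size and composition, and changes as log2 values with the standard error (SE). The adjusted p comes from edgeR's quasi-likelihood F test over 13436 genes. The threshold for a call was an adjusted p of 0.05. Of the 10 members, 9 were tested, since Tubb2b was too low for the filter.

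**Figure D1:**
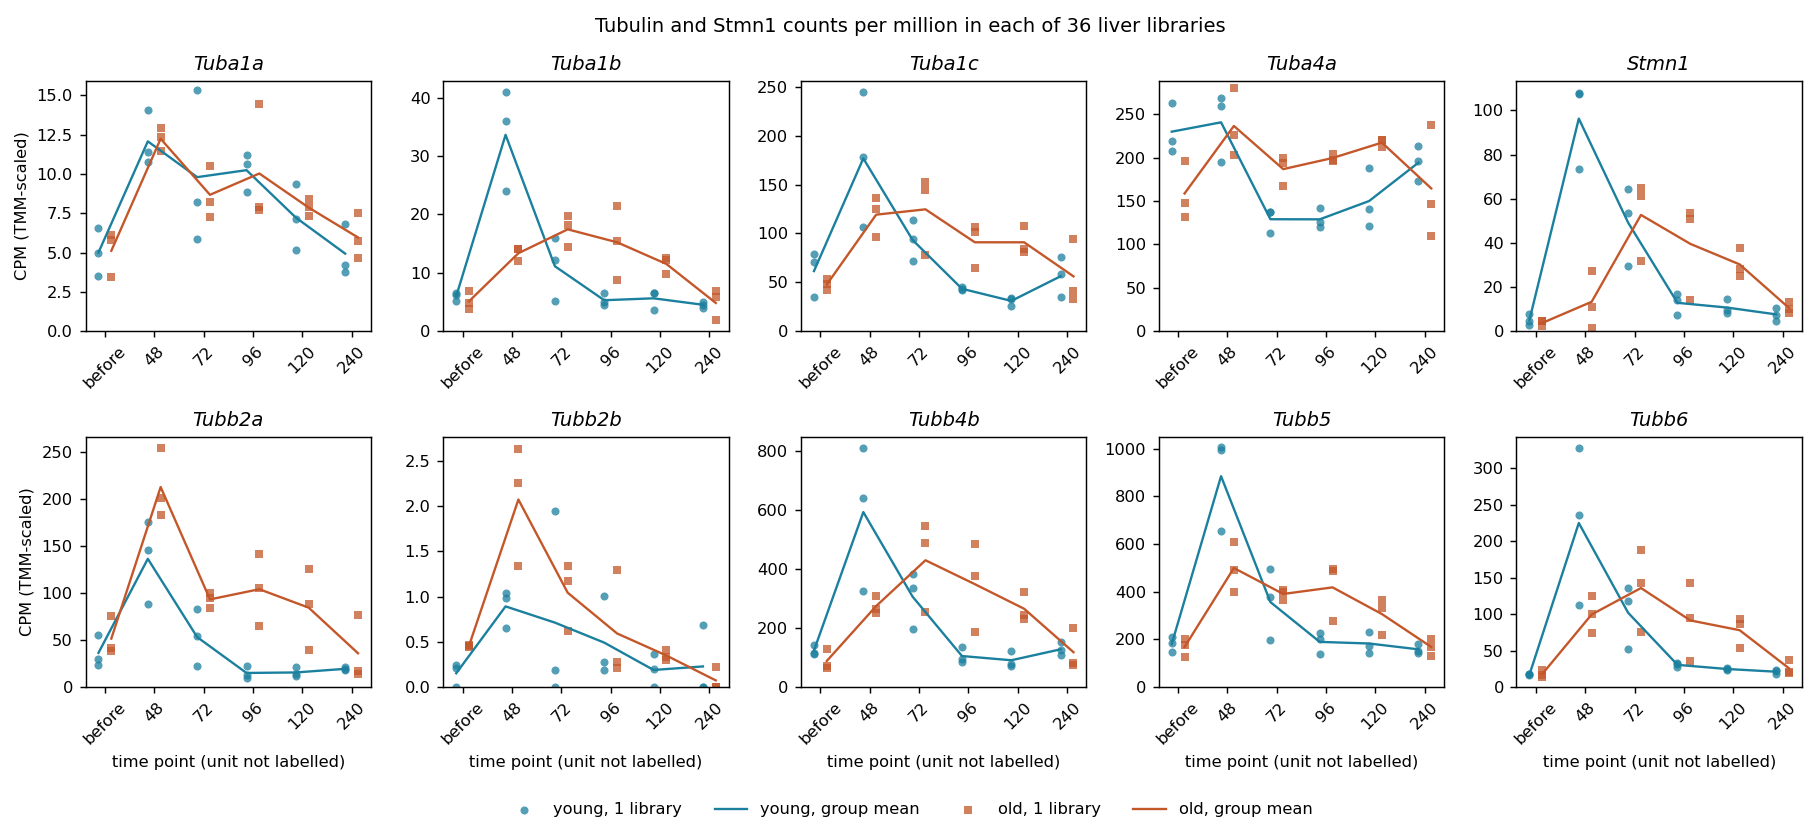
Each panel plots 1 gene, with CPM on a linear axis from 0 against the time point (evenly spaced; the labels give no unit). Circles are single young libraries, squares single old libraries, and lines join the means of 3. In young libraries the mean of each of the 9 tested genes was highest at 48. In old libraries the means of Stmn1, Tuba1b, Tuba1c, Tubb4b and Tubb6 were highest at 72.

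In young liver at 48, 8 of the 9 tested members rose and none fell, while 12.2% of all tested genes rose there and 21.9% were called in either direction. The exception was Tuba4a, whose log2 value moved by 0.07 (SE 0.20, adjusted p = 0.848). The median log2 fold change was 2.26 over the 9 members and -0.01 over all tested genes.

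Stmn1 changed most. Young libraries before regeneration gave 2.91, 4.73 and 7.75 CPM, and those at 48 gave 108, 73.5 and 107 CPM. The groups did not overlap, and the log2 fold change was 4.24 (SE 0.62, adjusted p = 1.68e-05), an 18.9-fold rise. Without any 1 library it stayed between 3.94 and 4.66.

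Among the alpha genes, Tuba1b had the largest change. It gave 6.24, 5.22 and 6.54 CPM before and 35.9, 24.1 and 40.9 CPM at 48 (log2 fold change 2.48, SE 0.35, adjusted p = 8.60e-06). Tuba1c, the most counted of the 3 near-identical Tuba1 genes, gave 34.7, 78.6 and 71.2 CPM before and 178, 107 and 245 CPM at 48 (log2 fold change 1.53, SE 0.35, adjusted p = 0.00224). Both genes were higher in every library at 48 than in any before. Tuba1a, the alpha isotype best known from neurons, rose from 4.99, 3.48 and 6.54 CPM to 10.8, 11.4 and 14.04 CPM (log2 fold change 1.26, SE 0.32, adjusted p = 0.00412), a call lost in the 24 libraries without Y-linked transcripts (adjusted p = 0.0756). Tuba4a, the alpha isotype with no near-identical copy, gave 208, 219 and 263 CPM before and 259, 195 and 268 CPM at 48, and its groups overlapped.

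All 4 tested beta genes rose at 48 in young liver. Tubb5, a broadly expressed isotype of dividing cells, went from 208, 148 and 185 CPM to 1006, 656 and 993 CPM (log2 fold change 2.30, SE 0.29, adjusted p = 3.06e-06). Tubb4b, another widely expressed isotype, went from 115, 113 and 144 CPM to 642, 327 and 811 CPM (2.26, SE 0.40, adjusted p = 0.000144). Tubb6, the beta isotype least like Tubb5 in coding sequence, went from 17.7, 16.2 and 17.4 CPM to 235, 112 and 327 CPM, the largest beta change (3.72, SE 0.45, adjusted p = 2.28e-06, 13.1-fold). In these 3 genes the replicate 2 library at 48 was the lowest of its group and still above every library before. Tubb2a rose from 23.5, 29.8 and 55.7 CPM to 146, 88.0 and 175 CPM (1.91, SE 0.54, adjusted p = 0.0110). The Tubb2a call was lost when young before replicate 1 or 2 or young 48 replicate 3 was left out (adjusted p 0.0505 to 0.0629).

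Some of these isotypes are also known from neurons. Neural markers summed to 40.8 to 49.2 CPM in young liver before and to less, 11.1 to 27.4 CPM, at 48. Bile duct markers summed to 41.8 to 50.6 CPM before and 28.8 to 40.6 CPM at 48. All 6 genes of a proliferation list rose at 48, with a median log2 fold change of 5.60, led by Ccnb1 (6.72, SE 1.00).

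In young liver at 72, 6 of 9 members were called, against 17.4% of all tested genes: 5 were higher, as were 9.21% of all genes, and 1 was lower, as were 8.21%. Stmn1 (64.2, 53.7 and 29.5 CPM) and Tubb6 (118, 136 and 52.2 CPM) were still 9.66-fold and 5.95-fold above before, with log2 fold changes of 3.27 (SE 0.61, adjusted p = 0.000786) and 2.57 (SE 0.43, adjusted p = 0.000375). Tubb4b (1.31, adjusted p = 0.0214), Tubb5 (0.98, adjusted p = 0.0164) and Tuba1a (0.96, adjusted p = 0.0362) were called higher. These 3 calls were each lost without 3 or 4 of the 6 single libraries: young before replicate 1 (Tubb4b, Tuba1a), young before replicate 2 (all 3 genes), young 72 replicate 1 (Tubb4b, Tubb5) or young 72 replicate 2 (all 3 genes), with adjusted p from 0.0561 to 0.355. With only the 6 libraries of these groups in the fit, Tuba1a (0.110) and Tubb5 (0.0650) were not called. Without the libraries with Y-linked transcripts Tuba1a was not called (0.0506) and Tuba1b was (1.27, adjusted p = 0.0488). Stellate markers summed to 344 to 845 CPM (median 819) at 72 and 314 to 451 CPM before, and bile duct markers to 41.2 to 286 CPM (median 125) and 41.8 to 50.6 CPM. Their part in the changes at 72 was not tested.

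Tuba4a fell instead. It gave 137, 113 and 137 CPM at 72 against 208, 219 and 263 CPM before, with no overlap (log2 fold change -0.83, SE 0.20, adjusted p = 0.00506). At 96 it gave 119.9, 142 and 125 CPM (-0.83, adjusted p = 0.0280) and was the only member called, among 1.40% of all genes (0.737% lower). That call at 96 was lost without any 1 of the 6 libraries of young before and young 96 (adjusted p 0.0530 to 0.140) and under total-count scaling (0.0781), while its direction did not change.

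From 48 to 72 in young liver, 3 members fell, against 0.871% of all genes (1.21% in either direction): Tuba1b by 1.59 (SE 0.33, adjusted p = 0.0215), Tubb5 by 1.31 (SE 0.28, adjusted p = 0.0235) and Tuba4a by 0.90 (SE 0.20, adjusted p = 0.0254), all on the log2 scale. All 3 were lost without young 48 replicate 1 or 3 or young 72 replicate 1 or 3 (Tuba4a also without young 72 replicate 2), with adjusted p from 0.0666 to 0.126. All 3 were also lost in the 24 libraries without Y-linked transcripts, at 0.196 (Tuba1b), 0.0735 (Tuba4a) and 0.179 (Tubb5). Stmn1 went from 73.5 to 108 CPM at 48 to 29.5 to 64.2 CPM at 72 without passing the test (-0.97, adjusted p = 0.340).

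By 120 and 240 no member was called in young liver, where 0.581% and 0.246% of all genes were. At an unadjusted p under 0.05, 3 members passed at 120 and 0 at 240, as did 12% and 5.11% of all tested genes. DESeq2 called 0 members at both. Tubb2a was low at the late times, at 9.56 to 22.6 CPM at 96, 12.2 to 20.8 CPM at 120 and 17.7 to 21.1 CPM at 240, each range below the 23.5 to 55.7 CPM seen before. Its log2 fold changes there were -1.27, -1.22 and -0.91, with adjusted p of 0.262, 0.376 and 1.00. In the 24 libraries without Y-linked transcripts, Tubb2a was called lower at 96 (-1.95, adjusted p = 0.0185) and 120 (-1.75, adjusted p = 0.0340).

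In old liver at 48 all 9 tested members rose, against 12.1% of all tested genes (24.1% in either direction). The median log2 fold change was 1.57 over the members and 0.01 over all genes. Tubb6 had the largest change, from 23.0, 16.3 and 14.4 CPM to 100.2, 125 and 73.6 CPM (2.47, SE 0.43, adjusted p = 0.000239). Tubb2a followed, from 75.1, 41.3 and 38.1 CPM to 201, 254 and 183 CPM (2.05, SE 0.53, adjusted p = 0.00699). Both genes were higher in every library at 48 than in any before.

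Tubb4b went from 129.6, 70.8 and 64.8 CPM to 266, 307 and 250.8 CPM (1.63, adjusted p = 0.00390). Tubb5 went from 201, 178 and 124 CPM to 489, 609.9 and 399.7 CPM (1.57, adjusted p = 0.000315). The 3 Tuba1 genes rose by 1.25 to 1.38, without overlap. Tuba4a went from 196, 148 and 132 CPM to 227, 280.0 and 203 CPM (0.58, SE 0.20, adjusted p = 0.0354), a call lost without old before replicate 2 or 3 or old 48 replicate 1 or 2 (0.0553 to 0.155).

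Stmn1 was uneven in old liver at 48. Its 3 libraries gave 11.1, 1.62 and 27.2 CPM, against 4.46, 4.47 and 2.28 CPM before, so that 1 library lay below all 3 of the earlier ones. The log2 fold change was 1.83 (SE 0.64, adjusted p = 0.0392). The call was lost without any of the old before libraries or without old 48 replicate 1 or 3 (adjusted p 0.0539 to 0.431), and the value ran from 0.746 without replicate 3 to 2.39 without replicate 2. With only the 6 libraries of these groups in the fit, 5 of the 9 members were called, and 221 genes in all instead of 3243.

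Calls continued to 120 in old liver. At 72, 6 members were called, all higher, as were 6.54% of all genes (12.4% in either direction). At 96, 5 were higher, as were 3.76% of all genes (6.82% in either direction). At 120, 3 were higher, as were 1.85% (3.87% in either direction). At 240 none was called, where 0.156% of all genes were. At an unadjusted p under 0.05, 1 member passed at 240, as did 7.67% of all tested genes, and DESeq2 called 0 members. Stmn1, Tubb4b and Tubb6 were called at 48, 72, 96 and 120. With only the compared groups in the fit, Stmn1 was not called at 48 (adjusted p = 0.252). In that fit Tubb4b (0.0618), Tubb6 (0.0773) and Tuba1b (0.0518) were not called at 96.

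Stmn1 had its highest old mean at 72, with 31.6, 61.3 and 65.1 CPM (log2 fold change against before 3.81, SE 0.63, adjusted p = 0.000444). It was at 53.7, 50.7 and 14.3 CPM at 96 and 24.9, 37.7 and 28.2 CPM at 120, where every library was above those before. It was the only member that changed from 48 to 72 in old liver, by 1.98 (SE 0.55, adjusted p = 0.0474; 1.39% of all genes were called higher and 2.67% in either direction). This step was lost without old 48 replicate 1 or 2 or old 72 replicate 2 or 3 (0.112 to 0.249), and in the 24 libraries without Y-linked transcripts (0.291).

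Tubb4b gave 254, 488 and 548 CPM at 72, 487, 375 and 185 CPM at 96 and 322, 244 and 230.4 CPM at 120, all above the 64.8 to 129.6 CPM before. Its log2 fold changes were 2.28 (SE 0.40, adjusted p = 0.000652), 1.98 (SE 0.40, adjusted p = 0.00370) and 1.59 (SE 0.39, adjusted p = 0.0224). Tubb6 gave 76.1, 143 and 188 CPM at 72, 143, 95.1 and 36.0 CPM at 96 and 86.9, 93.5 and 53.4 CPM at 120, with log2 fold changes of 2.92, 2.34 and 2.12. At 120 the calls of Tubb6 (0.0643) and Stmn1 (0.0791) were lost without old before replicate 3, and that of Tubb4b without old before replicate 2 or 3 or old 120 replicate 1 (0.0967 to 0.150). In the 24 libraries without Y-linked transcripts, 6 members were called at 120, among them Tuba1b (adjusted p = 0.0441), Tuba1c (0.0295), Tubb2a (0.0132) and Tubb5 (0.0205), and Stmn1 was not called at 48 (adjusted p = 0.137), 96 (0.0679) or 120 (0.0556).

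Tuba1b was called at 72 (14.4, 18.3 and 19.7 CPM, log2 fold change 1.76, adjusted p = 0.00170) and at 96 (1.58, adjusted p = 0.00845; lost without old before replicate 2 or 3 or old 96 replicate 2, at 0.0580 to 0.0965). Tuba1c was called at 72 (1.38, adjusted p = 0.0106; lost without old before replicate 3 or old 72 replicate 3, at 0.0574 and 0.0628). Tubb5 was called at 72 (1.22, adjusted p = 0.00547) and 96 (1.32, adjusted p = 0.00544), both lost without old before replicate 3 (0.0507 and 0.0609). Tubb2a was not called after 48, with log2 fold changes of 0.86, 1.01 and 0.71 at 72, 96 and 120, and neither were Tuba1a and Tuba4a. When the libraries with Y-linked transcripts were left out, Tubb2a was called at 72 (1.19, adjusted p = 0.0290) and 120 (1.45, adjusted p = 0.0132).

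**Figure D2:**
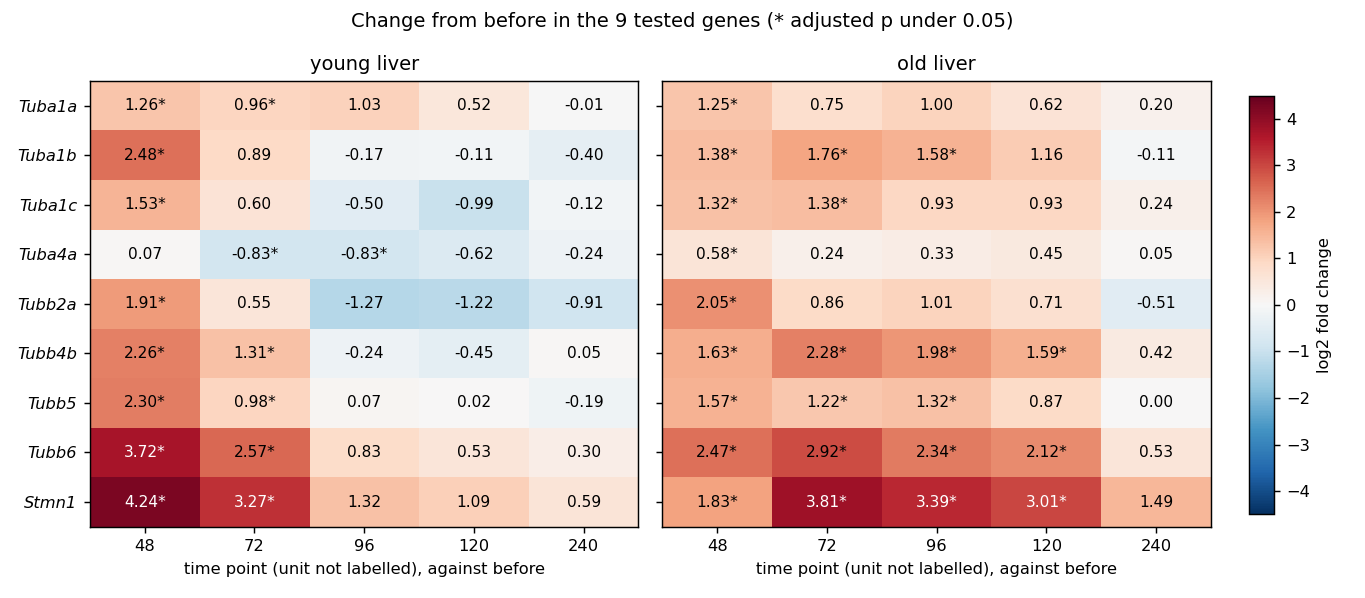
The colour and number in each cell are the log2 fold change of a gene at a time point (x axis, no unit labelled) against before, in young (left) and old (right) liver, and an asterisk marks an adjusted p under 0.05. In young liver 8 of the 9 genes are called at 48, 6 at 72 and 1 at 96, and Stmn1, Tubb4b and Tubb6 in old liver are called from 48 to 120.

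Old and young liver were then compared at the same time point. Before regeneration no member was called, among 0.0595% of all genes, and DESeq2 called 0 members. At an unadjusted p under 0.05, 1 member passed, as did 6.91% of all tested genes. Tuba4a was lower in all 3 old libraries (132 to 196 CPM) than in the young ones (208 to 263 CPM), at a log2 difference of -0.53 (adjusted p = 0.539).

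At 48, 2 members were lower in old liver, against 6.78% of all genes (11.2% in either direction), and none higher. Stmn1 stood at 1.62 to 27.2 CPM in old and 73.5 to 108 CPM in young liver, with no overlap (log2 difference -2.85, SE 0.55, adjusted p = 0.00142). Tuba1b stood at 11.95 to 14.1 CPM in old and 24.1 to 40.9 CPM in young liver, also with no overlap (-1.33, SE 0.33, adjusted p = 0.00709). Both calls held without any 1 library. With only the 6 libraries of this comparison in the fit, neither was called (adjusted p = 0.189 and 0.0790), and 1 gene was called in all instead of 1505.

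Tubb6 (-1.18, adjusted p = 0.0550), Tubb5 (-0.83, adjusted p = 0.0551) and Tubb4b (-1.11, adjusted p = 0.0616) lay just outside the threshold. Tubb5 and Tubb4b did not overlap between the ages at 48, and Tubb6 did. Of the proliferation list, 5 of 6 genes were also lower in old liver at 48, and Ccnb1 differed by -4.08 (SE 0.77). The bile duct marker sum was higher in old libraries (56.7 to 215 CPM) than in young ones (28.8 to 40.6 CPM) at 48. The part of bile duct cells in these differences was not tested.

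Tubb2a did not follow this pattern. At 48 it was higher in all 3 old libraries (183 to 254 CPM) than in the young ones (88.0 to 175 CPM), at a log2 difference of 0.64 (SE 0.51, adjusted p = 0.472). At 96 it was the only member called, at 142, 106 and 64.7 CPM in old and 9.56, 22.6 and 12.7 CPM in young liver (2.79, SE 0.57, adjusted p = 0.0471, 6.91-fold), when 0.134% of all genes were called higher and 0.171% in either direction. That single-time call was lost without any 1 of the 3 young libraries or old 96 replicate 1 or 2 (0.0838 to 0.229). Marker sums differed between the ages at 96 as well: macrophage 353 to 455 CPM in old and 549 to 627 CPM in young liver, endothelial 277 to 313 and 351 to 377 CPM, and stellate medians 401 and 743 CPM. Their part in the difference was not tested. At 120 the difference was 2.43 (SE 0.56, adjusted p = 0.131), with 38.9 to 126 CPM in old and 12.2 to 20.8 CPM in young liver.

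Over all 6 time points together, Tubb2a was the 1 member that differed by age, at a mean log2 difference of 1.35 (SE 0.22, adjusted p = 0.000385, 2.54-fold). Of all tested genes, 5.98% were called and 3.39% were higher. The group mean was higher in old liver at 6 of 6 time points, and the libraries did not overlap at 48, 72, 96 and 120. The call held in all 44 alternative fits, with an adjusted p of at most 0.00103, and the value without any 1 library was 1.14 to 1.43. In the 24 libraries without Y-linked transcripts the mean difference was 1.14 (adjusted p = 0.000110), with differences of 0.88, 0.39, 2.96 and 3.08 from 48 to 120, and of -0.11 before and -0.34 at 240. The libraries with Y-linked transcripts were the highest for Tubb2a in old liver before (75.1 CPM) and at 240 (77.0 CPM, against 17.0 and 13.8 CPM).

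Other members were not called at the later time points. At 96, 8 of 9 members had an unadjusted p under 0.05, as did 13.2% of all tested genes, with a median log2 difference of 1.52 against -0.01 over all genes, and 1 was called. Tubb4b (1.73, adjusted p = 0.0504) and Tuba1b (1.52, adjusted p = 0.0514) were nearest the threshold. At 120, 8 of 9 had an unadjusted p under 0.05, as did 9.83% of all tested genes, and none was called, as was true of all 13436 genes, and DESeq2 called 4. Tubb2a (adjusted p = 0.000323), Tuba1c (0.0319) and Tubb4b (0.0319) were called at 120 in the 24 libraries without Y-linked transcripts. At 72 and 240 no member was called, and DESeq2 called 0 members at both. At an unadjusted p under 0.05, 1 and 0 members passed, as did 4.86% and 4.92% of all tested genes. At 72 edgeR called 0 of all genes, and at 240 it called 0.0149%.

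**Figure D3:**
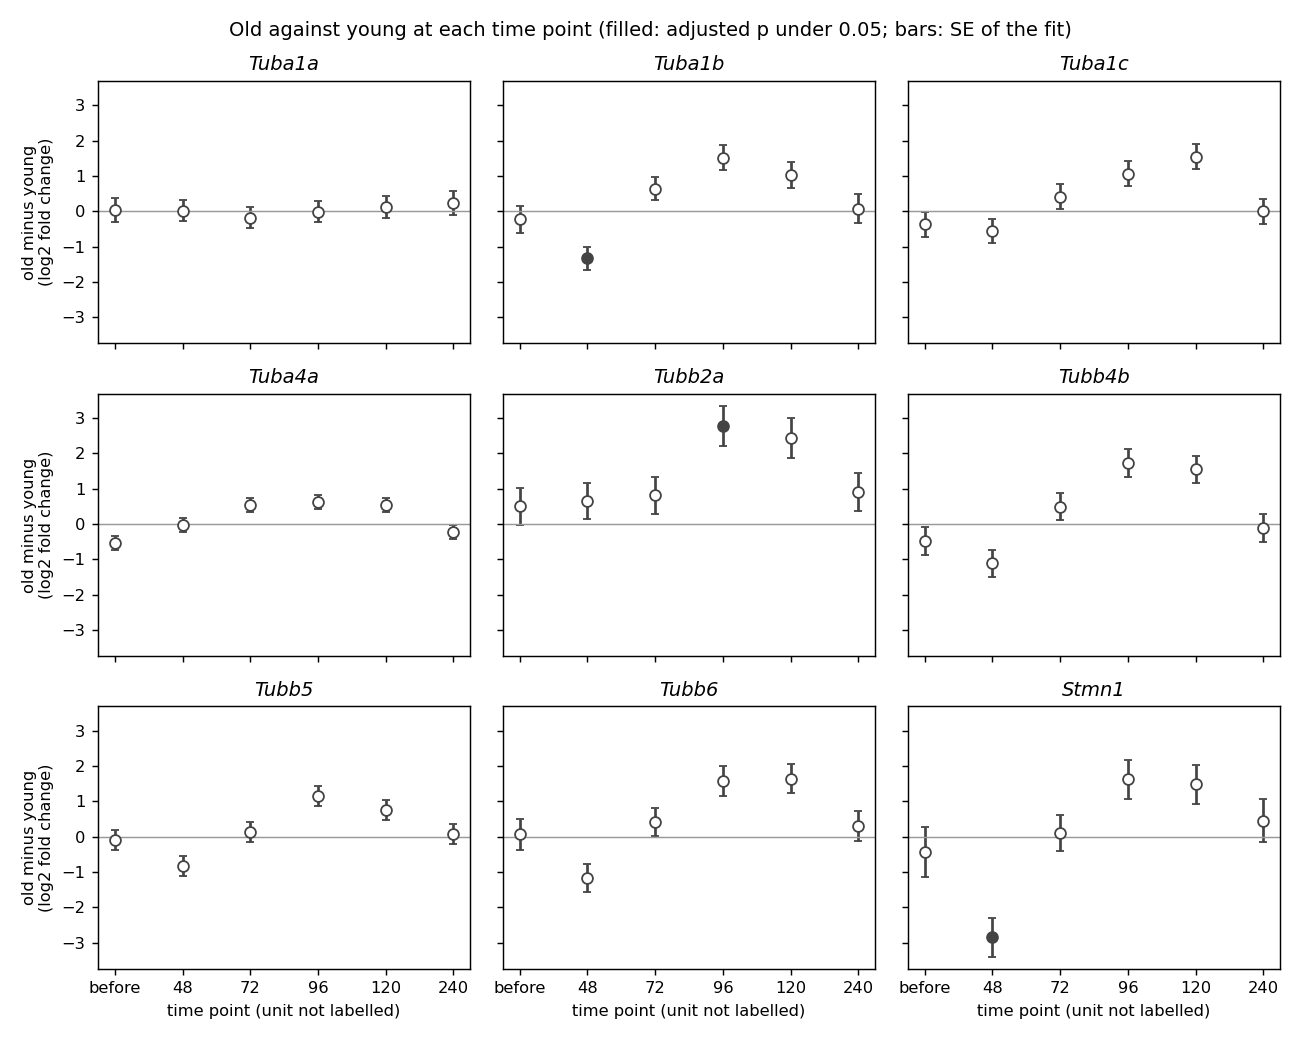
Points give the log2 difference of old minus young (y axis) at each time point (x axis, no unit labelled) for the 9 tested genes, bars are 1 standard error of the fit, and filled points have an adjusted p under 0.05. Stmn1 and Tuba1b are below 0 at 48, Tubb2a lies above 0 throughout, and Tuba1a stays near 0.

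The time courses of the ages were set against each other by the age by time interaction. It was called for 7 of the 9 members, against 2.76% of all genes. The smallest adjusted p were those of Tuba1b (0.00748), Tubb4b (0.00857) and Stmn1 (0.00863), which held without any 1 library. Tubb6 (0.0245), Tuba4a (0.0340), Tubb5 (0.0341) and Tuba1c (0.0473) were called as well. Tuba1a, the member closest between the ages, was not (0.996), and Tubb2a was not (0.214). In the 24 libraries without Y-linked transcripts 4 members were called, among them Tubb2a (0.00538), and Stmn1 (0.208), Tuba1b (0.0579), Tubb5 (0.0654) and Tubb6 (0.0946) were not. DESeq2 called 8, Tubb2a (0.0328) included. Without 1 library, Tubb6 was lost in 3 cases (young 48 replicate 1, young 48 replicate 3 or old 48 replicate 1, adjusted p 0.0641 to 0.0751). Of the 36 libraries, leaving out 11 singly ended the call of Tuba4a (0.0513 to 0.0788), 13 that of Tubb5 (0.0503 to 0.0988) and 24 that of Tuba1c (0.0526 to 0.104). The number called ran from 3 (without young 48 replicate 1 or old 48 replicate 1) to 8 when 1 library was left out.

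The alpha-tubulin counts were next split by isotype, as the share of each gene in the summed counts of the 4 alpha genes. No test was made on shares. In young liver before regeneration, Tuba4a made up 71.5%, 75.7% and 81.9% of the alpha counts (mean 76.4% ± 5.2, SD, n = 3). At 48 it made up 47.2%, 53.5% and 57.8% (52.8% ± 5.3), below every earlier library. By counts per kilobase the share of Tuba4a at 48 was 39.8% ± 4.9 and that of Tuba1c 45.2% ± 5.9, so their order depends on the scale. Tuba1c went from 19.9% ± 6.0 to 37.2% ± 5.7 and Tuba1b from 2.01% ± 0.39 to 7.25% ± 0.15. The Tuba4a share was 53.6% ± 9.3 at 72, 68.6% ± 1.2 at 96, 76.9% ± 4.4 at 120 and 75.1% ± 6.1 at 240.

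In old liver the Tuba4a share went from 73.1% ± 1.6 before to 61.9% ± 3.9 at 48, 55.9% ± 8.8 at 72, 63.7% ± 6.7 at 96, 66.4% ± 2.7 at 120 and 71.7% ± 3.4 at 240. The lowest mean was at 48 in young liver and at 72 in old liver. In both ages the libraries at 48 and 72 overlapped, with 57.4% to 64.8% at 48 and 49.2% to 65.9% at 72 in old liver. At 120 the 3 old libraries (63.3% to 68.1%) lay below the 3 young ones (73.7% to 81.9%). Tuba1b made up 3.57% ± 0.74 of the alpha counts in old liver at 48, less in each library than in any young one, and 5.15% ± 0.24 at 72.

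The summed level of each family was also followed, with no test. The alpha sum was 303 ± 47 CPM before and 463 ± 117 CPM at 48 in young liver, and 217 ± 41 and 381 ± 51 CPM in old liver. The beta sum was 358 ± 48 CPM before and 1841 ± 585 CPM at 48 in young liver, and 326 ± 95 and 1088 ± 196 CPM in old liver. In the young group at 48 the lowest beta sum (1184 CPM) was above the highest before (402 CPM). Old libraries had beta sums of 1051 ± 212 CPM at 72, 963 ± 360 CPM at 96 and 734 ± 181 CPM at 120, where young ones had 818 ± 323, 340 ± 79 and 314 ± 79 CPM.

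Of the beta counts, not scaled for length, Tubb5 and Tubb4b held most in every group, at group means of 38.3% to 58.2% and 25.5% to 40.0%. The beta isotype whose share rose without overlap at 48 and 72 in both ages was Tubb6. In young liver it went from 4.82% ± 0.47 before to 11.7% ± 2.4 at 48 and 12.3% ± 1.1 at 72. In old liver it went from 5.54% ± 0.35 to 9.06% ± 0.83 and 12.5% ± 3.0. Its libraries at each later time point, 240 included, lay above all those before in both ages. The Tubb4b share rose without overlap in old liver only, from 26.7% ± 3.6 before to 40.0% ± 8.0 at 72, 35.6% ± 2.9 at 96 and 36.8% ± 5.3 at 120. In young liver its libraries at 72 (38.4% ± 3.6) overlapped those before (34.7% ± 2.7).

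Tubb2a held a larger part of the beta counts in old liver. At 48 its share was 19.0%, 19.6% and 20.1% in old libraries (mean 19.6% ± 0.6) and 7.19%, 7.43% and 7.59% in young ones (7.40% ± 0.20). The old share was 9.12% ± 2.07 at 72, 10.9% ± 0.9 at 96 and 10.9% ± 3.5 at 120, against 6.13% ± 1.38, 4.26% ± 0.97 and 4.90% ± 0.24 in young liver, with no overlap at any of these times. Before regeneration (15.6% ± 2.0 old, 10.01% ± 3.7 young) and at 240 (8.85% ± 5.24 old, 6.02% ± 1.19 young) the ages overlapped. Tubb4b held 26.7% ± 3.6 of the beta counts in old and 34.7% ± 2.7 in young liver before regeneration, and 25.5% ± 2.0 and 31.5% ± 3.8 at 48, both without overlap. At 96 and 120 the order was the other way, with 36.8% ± 5.3 in old and 28.7% ± 1.7 in young liver at 120, again without overlap. Tubb5 held less in old liver at 96 (44.6% ± 5.4, against 55.6% ± 3.2 in young liver) and at 120 (41.7% ± 1.9 against 58.2% ± 1.6). Neither overlapped, and the difference at 120 (-16.6 points, old minus young) was the largest between the ages for any isotype. At the other time points the Tubb5 shares of the ages overlapped.

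**Figure D4:**
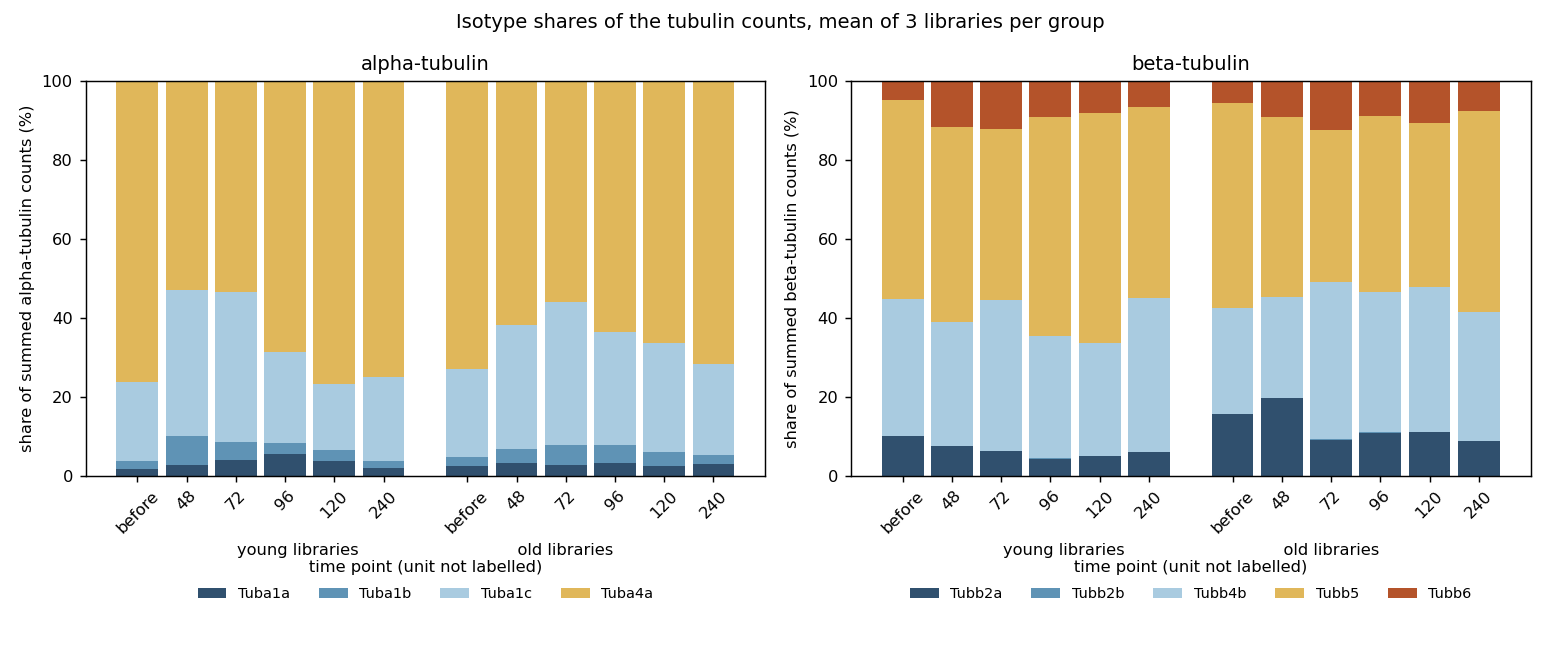
Bars stack the mean share (y axis, percent of summed counts, 3 libraries per group) of each alpha (left) and beta (right) gene at each time point, young libraries first and old ones second. The mean share of Tuba4a falls to 52.8% in young liver at 48 and to 55.9% in old liver at 72, though libraries at 48 and 72 overlap in both ages. Tubb2b is too small to be seen.

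**Figure D5:**
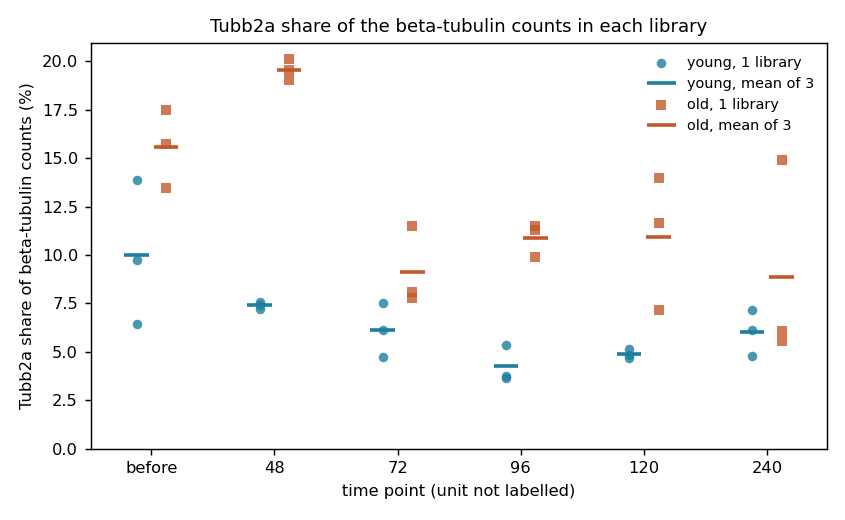
Points are single libraries and short lines are means of 3, with the Tubb2a share of the beta-tubulin counts (percent) against the time point (no unit labelled). At 48, 72, 96 and 120 every old library lies above every young one.

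The shares above are of counts, which also grow with gene length. Levels of different genes were therefore compared as CPM per kilobase of exon. In young liver before regeneration, Tuba4a (62.2 ± 7.9 CPM per kilobase), Tubb4b (59.3 ± 8.3) and Tubb5 (54.2 ± 9.1) were highest and did not differ beyond their spread, with Tuba1c (26.9 ± 10.3) and Tubb2a (22.6 ± 10.6) next. Tubb6 (7.01 ± 0.33), Tuba1b (3.20 ± 0.37) and Tuba1a (2.78 ± 0.85) were lower. In young liver at 48 Tubb4b (284 ± 118) and Tubb5 (266 ± 60) led, followed by Tubb6 (92.3 ± 44.4), Tubb2a (84.7 ± 27.6), Tuba1c (77.3 ± 30.2) and Tuba4a (65.1 ± 10.8), which overlapped one another.

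In old liver at 48 Tubb5 (150 ± 32), Tubb2a (132 ± 23) and Tubb4b (131 ± 14) stood together at the top on the same scale. Tubb2a was thus level with the leading beta genes in old liver, and below them in young liver, where no library of Tubb2a reached the lowest of Tubb4b or Tubb5.

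Tubb2b, the near-identical neighbour of Tubb2a, was close to absent. Its highest count was 13 (2.63 CPM, old liver at 48), and 7 of 36 libraries had 0, which allows up to 3 counts each. Old libraries gave 1.33, 2.63 and 2.25 CPM at 48 and young ones 0.654, 1.03 and 0.986 CPM, with no overlap and no test. These counts are few enough that reads from Tubb2a placed on Tubb2b could make a part of them, which was not tested.

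Of 11 other tubulin genes, fixed as a list by symbol, 6 passed the filter. In young liver at 48, 4 of these rose: Tuba8 (2.91, SE 0.86, adjusted p = 0.0159), an alpha isotype, and Tube1 (2.18, SE 0.54), Tubd1 (1.58, SE 0.36) and Tubg1 (1.21, adjusted p = 0.000663), which encode the epsilon, delta and gamma tubulins of the centrosome. Tubb1 (0.56) and Tubb3 (0.54), isotypes known from platelets and neurons, were not called. In old liver at 48 Tuba8 alone of the 6 rose (3.38, adjusted p = 0.0102), and Tubd1 (-1.37, adjusted p = 0.00920), Tube1 (-1.71, adjusted p = 0.0272) and Tubg1 (-0.74, adjusted p = 0.0444) were lower in old than in young liver. Tubb1 was higher in old liver over all time points (0.89, SE 0.24, adjusted p = 0.0269). Of the 3 other stathmin genes none passed the filter.

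Genes that fold tubulin or handle it otherwise were counted by list at 48. Of the 8 subunits of the CCT chaperonin, which folds tubulin, 1 rose in young liver (Cct7, 0.65, SE 0.18) and 3 in old liver (Cct2, Cct3 and Cct7, at 0.84, 1.20 and 0.57). Of 5 tested prefoldin subunits, which hand tubulin to CCT, Vbp1 rose in young liver (1.61, SE 0.22) and none in old liver. None of 6 tubulin-folding cofactors was called in either age.

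Of 9 genes of the gamma-tubulin ring, which starts new microtubules, 3 rose and 1 fell in young liver and 1 rose in old liver. Cdk5rap2, which tethers the ring to the centrosome, rose in young liver (2.21, SE 0.30), gave 0.27 in old liver (adjusted p = 0.533) and was lower in old than in young liver at 48 (-1.50, SE 0.28, adjusted p = 0.00102). Of 13 tested genes that modify tubulin, 2 rose in young (Ttll12 and Ttll4) and 1 in old liver. Ckap5, which helps microtubules grow at their plus ends, rose in young liver (0.92, SE 0.20) and was lower in old than in young liver at 48 (-0.98). Of 5 genes of tubulin mRNA autoregulation, Cnot11 rose in young liver (0.37, SE 0.13) and none in old liver. These shares are to be read against the 21.9% and 24.1% of all tested genes called in young and old liver at 48.

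Likeness between genes was described by Pearson's r over the 12 group means of log2(CPM + 1), which share libraries, ages and time points, so no p is given. Among the members, r was highest between Tuba1b and Tubb5 (0.978) and lowest between Tuba1a and Tuba4a (0.124). Stmn1 was nearer to Tubb6 (0.886) and Tubb4b (0.866) than to Tubb2a (0.471). Outside the members, Stmn1 was most like the cell cycle genes Cdca3 (0.996), Hmmr (0.991) and Esco2 (0.990). Tuba1b was most like Mcm7 (0.982), a subunit of the replicative helicase, and Tubb4b most like Usp5 (0.978). Tubb5 was most like Gpaa1 (0.983) and Cct7 (0.977). Tubb2a was most like Usp6nl (0.990) and Slc45a3 (0.973), Tubb6 most like Mtnr1a (0.985), Tuba1c most like Rbm10 (0.962) and Tuba1a most like Tpm4 (0.965), an actin-binding tropomyosin. Tuba4a had the weakest nearest gene, Psmd11 (0.911), a proteasome subunit.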

How the data were processed

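The authors deposited 1 table of raw read counts per library, 36 in all, with 21955 gene symbols each. Per the labels' protocols, total RNA was DNase-treated, depleted of ribosomal RNA and made into libraries, with a different spike-in mix in each age; spike-ins were not analysed here. Per the submitters' processing notes, the tools were bcl2fastq 2.20.0, Trimmomatic 0.39, FastQC 0.11.9, STAR 2.7.5b, SAMtools 1.10, Picard 2.20.8, deepTools 3.5.0 and featureCounts, with GRCm38. The annotation, strand setting and treatment of reads that fit several genes are not given in the sources used here.

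Counts were filtered with filterByExpr (13436 genes left), scaled by TMM and fitted over all 36 libraries, 1 mean per group, with edgeR 4.0.16 (R 4.3.3), using the robust quasi-likelihood F test and Benjamini-Hochberg adjustment. The robust option was chosen after a fit without it had been seen; without it Tubb6 at 48 (adjusted p = 0.0474) and Tubb4b at 96 (adjusted p = 0.0485) were also called between the ages. Members and gene lists were chosen with earlier results of these data known. All members are described. Of each list, up to 3 genes with the largest change in young liver at 48 are named, among those called there with a mean of at least 1 CPM, and every other tubulin gene past the filter. For likeness, the 3 genes nearest each member were found, without predicted genes. Cct2 and Cct3 were named after their values were seen. The list of microtubule-binding genes is not reported here as a whole. On simulated old against young data at 48 (13149 genes), 92% of 4-fold and 34.3% of 2-fold changes were called, and 7.35% of 136 calls were false. The simulation gave all groups the same spread. In the data the spread of old liver at 48 was larger (40.6%), so these rates do not describe that comparison.

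Alternatives were RLE and total-count scaling, no filter, a replicate block, a term for Y-linked transcripts, a fit of only the groups compared, DESeq2 1.42.0 and each library left out. The fits without the libraries with Y-linked transcripts and without the robust option were added after seeing the data. No 2 libraries were identical. Correlations of the deviations from the group means were taken between libraries within an age. For the same replicate number they ran from -0.378 to 0.567 (mean 0.0366) in young and -0.373 to 0.578 (mean 0.0797) in old liver. For other numbers the means were -0.0135 and -0.0357. Replicate 1 held Y-linked transcripts in young liver before and not at 48, and in old liver at 48 and not at 72. The numbers were therefore not taken to pair libraries. Where the labels do not name separate animals, p-values measure the spread between these samples.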

Additional observations from a re-analysis of the deposited data

Results flagged for a closer look

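By edgeR's quasi-likelihood test of the age by time interaction, 7 of the 9 tested genes were called, against 2.76% of all genes. With 1 library left out, the number called ran from 3 to 8. In the 24 libraries without Y-linked transcripts, Stmn1 (adjusted p = 0.208), Tuba1b (0.0579), Tubb5 (0.0654) and Tubb6 (0.0946) were not called. With all 36 libraries the adjusted p was 0.00748 for Tuba1b, 0.00857 for Tubb4b, 0.00863 for Stmn1, 0.0245 for Tubb6, 0.0340 for Tuba4a, 0.0341 for Tubb5 and 0.0473 for Tuba1c.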

How the results depend on the processing

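Tubb2a over all time points was called in all 44 alternatives. With only the groups compared in the fit, the number of members called became 4 for young 72, 2 for young 96, 5 for old 48, 3 for old 96, 4 for old 120, 0, 2 and 3 for old against young at 48, 96 and 120, and 0 for the step from 48 to 72 in either age. In the 24 libraries without Y-linked transcripts it became 2 for young 96, 1 for young 120, 6 for old 120, 3 for old against young at 120, 0 for either step and 4 for the interaction. DESeq2 called 5 for old 120 5, 5 and 4 for old against young at 48, 96 and 120 and 8 for the interaction. Total-count scaling gave 0 for young 96, 0 for the young step and 4 for the interaction; the median log2 change of all genes was then 0.211 in young liver at 72, against 0.01 with TMM. Without a filter the count was 0 for old against young at 96 and 0 for the old step. A term for Y-linked transcripts gave 4, and no robust option 2, for old against young at 96. With the replicate block, 3 members were called for old against young at 48 and 3 at 96, 6 for the interaction (Tuba1c lost, 0.0639), 8 for old 48 (Stmn1 lost, 0.0663) and 0 for the old step (Stmn1, 0.0713). Over all tested genes, calls went from 3243 to 221 for old 48, from 1505 to 1 for old against young at 48, from 162 to 1 for the young step and from 359 to 0 for the old step with only the groups compared. In the 24 libraries they went from 2949 to 1610 for young 48 and from 371 to 100 for the interaction, for which DESeq2 gave 733. For old against young at 96 they went from 23 to between 14 (no filter) and 230 (DESeq2). The cause of these changes was not tested, and 2 of the fits also held fewer libraries.

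Leaving out 1 library gave 7 to 8 members for young 48, 3 to 7 for young 72, 0 to 0 for young 96, 7 to 8 for old 48, 4 to 6 for old 72, 3 to 6 for old 96 and 0 to 4 for old 120. It gave 2 to 5, 0 to 5 and 0 to 1 for old against young at 48, 96 and 120, 1 to 2 over all time points, 0 to 3 and 0 to 1 for the young and old step, and 3 to 8 for the interaction.

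As a share of all alpha and beta counts, the change from before to 48 was -0.194 (Tuba1a), 0.567 (Tuba1b), -1.77 (Tuba1c), 6.34 (Tubb4b) and 11.8 (Tubb5) percentage points in young liver. In old liver it was -0.0962 (Tuba1a), -0.0184 (Tuba1b), -0.796 (Tuba1c), 2.86 (Tubb4b) and 2.78 (Tubb5). Per kilobase, Tuba1b in young liver gained 7.33 points.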
